A study of Homo sapiens with 6 samples.

Results

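The genes examined here encode the machinery that carries a cell from G1 into S phase and copies its DNA. They were chosen by symbol from a list of 36 G1/S and DNA replication genes, with the requirement of a mean value of at least 1 in at least 1 of the 2 groups. Rows were found for 33 of the 36, and all 33 met that level, among 16548 of 17356 listed lines that did so. The remaining members, PCNA, GINS1 and E2F1, are not analysed here. The RNA-seq libraries came from C4-2B-ENZR, a human prostate cancer line resistant to the androgen receptor inhibitor enzalutamide, with 3 libraries after a negative control siRNA (labelled NC) and 3 after an siRNA directed at KIF15 (siKIF15). Both groups share the line, the culture medium and transfection, and the labels give no siRNA sequence, no time after transfection and no statement that enzalutamide was in the medium. Whether the 3 libraries within each group are separate cultures is not stated, and the p-values therefore reflect the spread among libraries alone, part of which may be technical. Since the samples are bulk RNA, a change in the share of cells in S phase and a change in RNA per cell cannot be told apart.

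Replication starts in G1, when the origin recognition complex, CDC6 and CDT1 load the ring of MCM2 to MCM7 onto DNA, a step called licensing. At the G1/S boundary cyclin E with its kinase phosphorylates the retinoblastoma protein, E2F factors are released, and many licensing, helicase and nucleotide synthesis genes are transcribed. In S phase CDC45 and the 4-subunit GINS complex join the MCM ring to form the active helicase, polymerase alpha with primase lays down primers, and the RFC complex loads the PCNA clamp. In prostate cancer cells, as in other cycling cells, these transcripts are known as markers of proliferation.

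The E2F letters that mark such promoters were looked for in RefSeq windows of 300 bases, from 250 before to 50 after a start (GRCh38.p14). The motif searched was TTTCCCGC, TTTCGCGC, TTTGCCGC or TTTGGCGC on either strand, and matches on opposite strands can overlap. The stretches below, 80 bases each and all before the start, are shown because they place the letters in members that rose and in members that were not called. Each runs 5′ to 3′ on the gene's strand, capitals mark the E2F letters, and matches elsewhere in a window are not printed.
GINS2, called higher, chr16:85688955-85689034, minus strand: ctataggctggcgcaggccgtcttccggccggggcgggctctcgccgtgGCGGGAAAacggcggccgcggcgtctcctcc
CDT1, called higher, chr16:88803709-88803788, plus strand: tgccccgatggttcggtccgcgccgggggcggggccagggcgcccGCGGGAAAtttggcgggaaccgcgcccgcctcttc
TYMS, called higher, chr18:657573-657652, plus strand: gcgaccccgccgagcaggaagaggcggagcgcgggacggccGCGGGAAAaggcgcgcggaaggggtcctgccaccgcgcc
MCM7, called higher, chr7:100101398-100101477, minus strand: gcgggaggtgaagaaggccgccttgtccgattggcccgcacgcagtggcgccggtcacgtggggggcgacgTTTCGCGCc
MCM3, called higher, chr6:52284853-52284932, minus strand: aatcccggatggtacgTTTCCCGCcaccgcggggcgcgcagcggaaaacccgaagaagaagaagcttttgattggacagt
MCM6, not called, chr2:135876519-135876598, minus strand: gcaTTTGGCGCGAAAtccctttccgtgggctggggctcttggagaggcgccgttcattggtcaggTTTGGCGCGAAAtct
E2F2, not called, chr1:23531234-23531313, minus strand: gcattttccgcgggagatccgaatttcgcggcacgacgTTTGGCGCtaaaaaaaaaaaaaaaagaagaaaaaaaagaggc
RFC3, not called, chr13:33818069-33818148, plus strand: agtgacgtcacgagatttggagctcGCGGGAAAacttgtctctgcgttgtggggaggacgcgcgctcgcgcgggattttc
MCM6, which was not called, carries 4 of these matches, in overlapping pairs.

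Of 28 members with a window, 14 held E2F letters, against 772 (5.9%) of the 13051 tested genes with a window. Among members called higher the count was 7 of 9, and among members not called 7 of 19. A list of 53 further replication genes had the letters in 16 of 43 windows (37.2%), and a list of 38 mitotic genes in 3 of 33 (9.1%). The cell cycle homology letters TTTGAA, on either strand, showed the opposite picture, with 26 of 33 mitotic genes (78.8%) and 1 of 28 members (3.6%), against 14.5% of tested genes. A match describes letters only.

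The value of a gene is the deposited signal, whose scale is not given in the sources used here. Sums of the signal were 50063012, 49582313 and 49460840 in NC 1 to 3. They were higher, at 52035293, 53157388 and 50360191, in siKIF15 1 to 3, and the main fit did not rescale the libraries. Such sums are not depths, and the depth is unknown. The targeted transcript was read first. KIF15 stood at 366.4, 403.6 and 319.0 in NC 1 to 3 and at 294.8, 333.1 and 363.0 in the libraries labelled siKIF15 1 to 3. The groups overlap, with a log2 change of -0.13 ± 0.14 (SE; 95% interval -0.43 to 0.16; limma adjusted p = 0.57). The label is thus not matched by a lower KIF15 signal, so every change is given as siKIF15-labelled libraries relative to NC libraries. All 10 luminal prostate markers were measured, with sums of 299813.8 to 309191.1 in NC and 323654.1 to 344376.6 in siKIF15-labelled libraries. Leukocyte marker sums (5 of 6 genes measured) were 23.4 to 54.3 and 27.5 to 57.1, with PTPRC at 0 in all siKIF15 libraries. Fibroblast sums (6 of 6 genes listed, 5 measured) were 487.6 to 529.8 and 452.0 to 501.1, mostly COL1A1. COL3A1 was at 0 in 5 of 6 libraries. Endothelial sums (4 of 5 genes listed, 3 measured) were 315.1 to 334.3 and 318.0 to 414.5, mostly VWF. The part of these markers in the results was not tested.

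A minority of the members were called higher in the libraries labelled siKIF15, and among the 33 the largest changes were those of the helicase genes CDC45 and GINS2. Of 33 members, 11 (33.3%) were called higher at a limma adjusted p of at most 0.05 over all 16548 genes, against 9.66% of all genes tested. None was called lower, against 8.33% of all genes. At an unadjusted limma p of at most 0.05, 17 members were higher and 0 lower. The share of all genes at that threshold was not counted, so this and later unadjusted counts have no background beside them. The called members were CDC6, CDT1, MCM2, MCM3, MCM5, MCM7, CDC45, GINS2, GINS4, TYMS and CHAF1B, with ratios of group means between 1.17 and 1.44. The median log2 change over the 33 was 0.18, and over all genes tested it was 0.00. For 20 members every siKIF15-labelled library lay above every NC library, against 18.3% of all genes, and for none did all lie below, against 16.5%. Among the 10310 genes at least as high as the lowest member, 11.4% were called higher and 20.5% had groups that did not overlap in that direction.

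Per library, the members' median difference from the NC mean was -0.03, 0.03 and -0.02 (log2) in NC 1, 2 and 3. It was 0.15, 0.24 and 0.17 in the libraries labelled siKIF15 1, 2 and 3, in which 29, 30 and 31 of 33 members lay above the NC mean. Of the 11 called members 8 had their smallest difference in siKIF15 3.

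**Figure D1:**
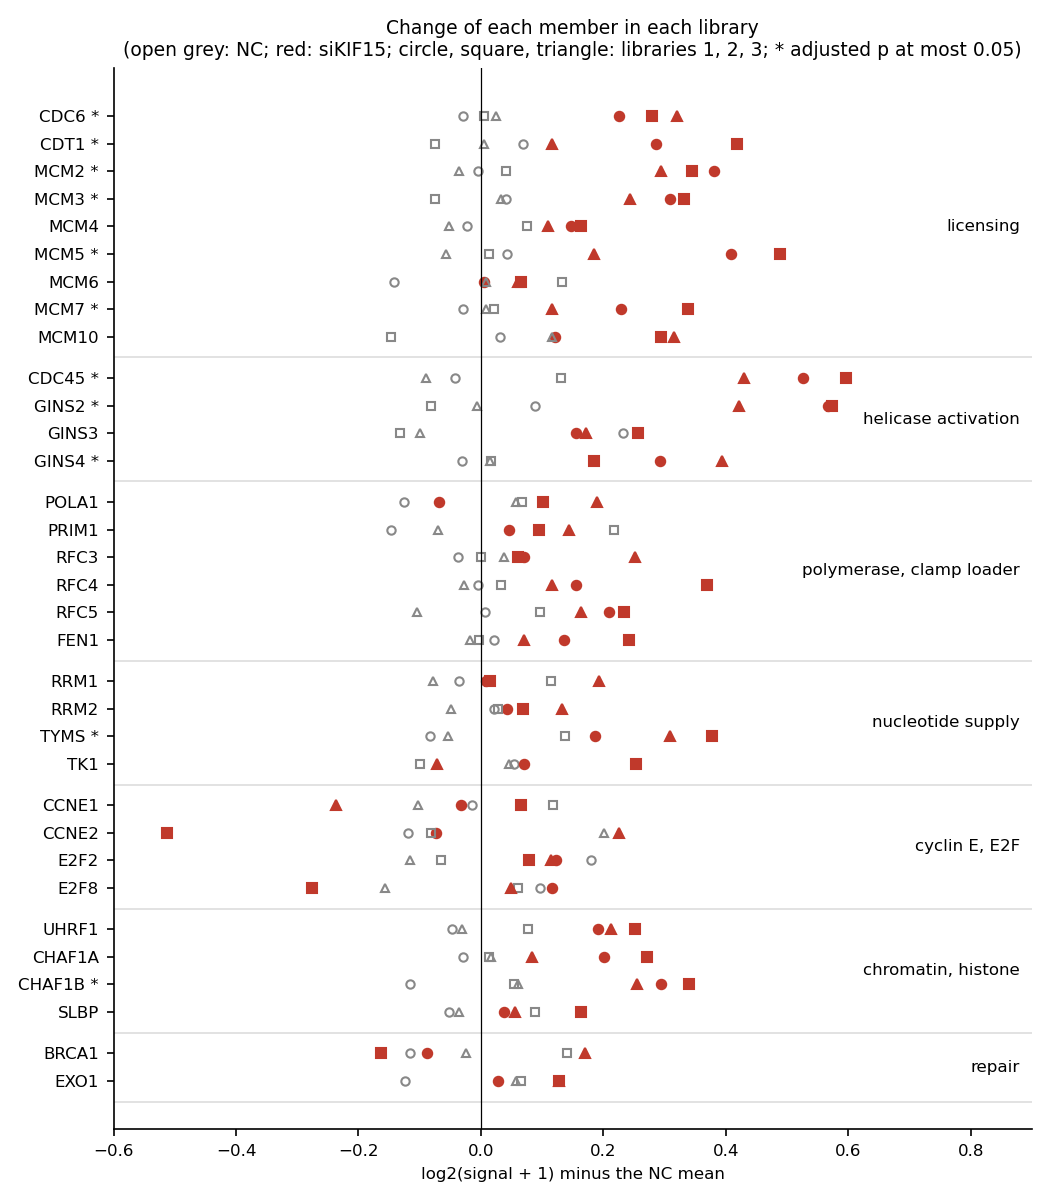
Difference of each member from its NC mean, on the log2(signal + 1) scale, in each NC library (open grey) and each siKIF15-labelled library (red), grouped by role; asterisks mark the 11 called members. Within each siKIF15-labelled library the red points of CDC45 and GINS2 lie farthest right. Those of the cyclin E and E2F genes fall on both sides of 0.

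Licensing genes supplied most of the calls. CDC6 and CDT1, the loaders of the MCM ring, both rose 1.21-fold. CDC6 was at 2718.1, 2784.1 and 2820.8 in NC libraries against 3244.6, 3368.8 and 3462.2 in siKIF15-labelled libraries (log2 change 0.28 ± 0.07 SE, adjusted p = 0.012). CDT1 was at 3471.1, 3143.9 and 3323.0 in NC libraries against 4034.1, 4421.2 and 3586.3 in siKIF15 (0.27 ± 0.08, adjusted p = 0.032), with siKIF15 3 just above NC 1. Both genes were therefore higher in all 3 labelled libraries, CDT1 by a narrow margin in the third.

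The 6 MCM subunits, which form a ring with each subunit present in a single copy, were not all called, and the difference between subunits was not tested. MCM2 (chr3:127598411-127622436 in GRCh38.p14, as for the other coordinates) had the smallest adjusted p among them. Its signal was 8317.1, 8577.5 and 8134.4 in NC and 10854.2, 10591.1 and 10231.1 in siKIF15-labelled libraries, a 1.27-fold rise (log2 change 0.34 ± 0.06 SE, adjusted p = 0.0018). MCM5 (chr22:35400140-35455031) was at 6092.7, 5971.9 and 5687.9 in NC libraries against 7848.3, 8302.8 and 6719.5 in siKIF15 (1.29-fold, 0.36 ± 0.08, adjusted p = 0.0054). The MCM5 rise was smallest in siKIF15 3, as for CDT1. MCM3 was at 5576.0, 5146.1 and 5545.0 in NC libraries against 6709.9, 6820.1 and 6415.0 in siKIF15 (1.23-fold, 0.29 ± 0.07, adjusted p = 0.0067).

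MCM7, the most abundant subunit per length, rose 1.17-fold, from 10996.8, 11388.8 and 11280.3 to 13152.0, 14192.6 and 12156.3 (0.23 ± 0.07, adjusted p = 0.036). MCM4 was at 5952.2, 6371.1 and 5836.6 in NC libraries against 6699.1, 6776.3 and 6525.3 in siKIF15, a log2 change of 0.14 (95% interval 0.00 to 0.28, adjusted p = 0.17). MCM6 was at 2668.8, 3228.7 and 2962.9 in NC libraries against 2954.7, 3081.6 and 3069.2 in siKIF15, 0.04 (95% interval -0.13 to 0.21, adjusted p = 0.76). All 3 siKIF15 values of MCM6 fell within the NC range, whereas those of MCM4 lay above the MCM4 range. The sign of the MCM6 change was negative, at -0.02, when libraries were scaled to equal totals.

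Ratios within a library do not depend on how libraries are scaled. They can still move with GC content, which is 58.1% for the MCM2 transcript and 43.1% for that of MCM6. MCM2 over MCM6 was 3.12, 2.66 and 2.75 in NC and 3.67, 3.44 and 3.33 in siKIF15-labelled libraries, without overlap. MCM3 over MCM6 was 2.09, 1.59 and 1.87 in NC and 2.27, 2.21 and 2.09 in siKIF15, barely without overlap. For MCM4 over MCM6 the groups overlapped, at 2.23, 1.97 and 1.97 in NC and 2.27, 2.20 and 2.13 in siKIF15, as they did for MCM5 and MCM7 over MCM6. These ratios were chosen with the values known and carry no test. MCM10, a replication factor that is not part of the ring, was at 945.5, 835.9 and 1002.7 in NC libraries against 1006.3, 1135.1 and 1151.3 in siKIF15 (0.24 ± 0.10, adjusted p = 0.11), with siKIF15 1 just above NC 3.

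**Figure D2:**
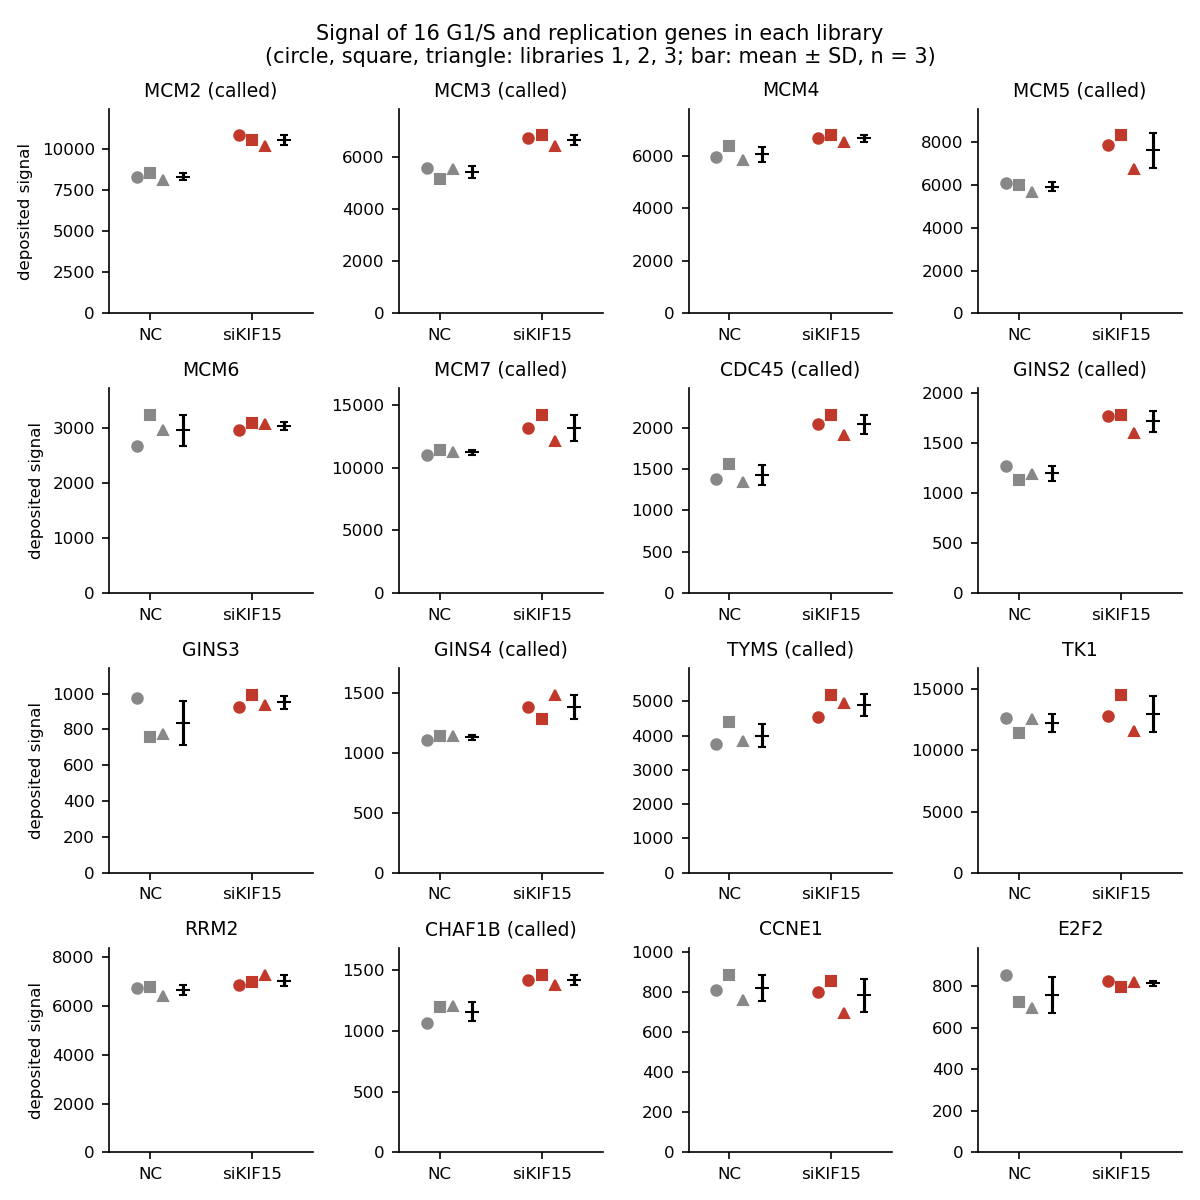
Deposited signal of 16 members in each library, with the mean and SD of each group (n = 3) and axes starting at 0; "called" marks an adjusted p of at most 0.05. CDC45 and GINS2 show the widest gaps relative to their level, and MCM6, TK1, CCNE1 and E2F2 show overlapping groups.

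Helicase activation genes gave the largest changes among the members. CDC45 (chr22:19479466-19520612) was at 1384.1, 1561.1 and 1339.6 in NC libraries against 2052.9, 2154.2 and 1919.0 in siKIF15-labelled libraries, a 1.43-fold rise (log2 change 0.52 ± 0.09 SE, adjusted p = 0.00068). GINS2 (chr16:85676198-85688954) was at 1269.5, 1128.9 and 1188.2 in NC libraries against 1770.3, 1778.3 and 1599.2 in siKIF15 (1.44-fold, 0.52 ± 0.09, adjusted p = 0.00063). The lowest siKIF15 value of each gene was well above its highest NC value. GINS4 was at 1107.5, 1144.5 and 1142.7 in NC libraries against 1385.3, 1285.7 and 1487.5 in siKIF15 (1.22-fold, 0.29 ± 0.09, adjusted p = 0.031). GINS3, another subunit of the same complex, was at 975.7, 757.7 and 775.8 in NC libraries against 925.1, 993.0 and 935.8 in siKIF15 (0.19 ± 0.11, adjusted p = 0.25). NC 1 was the high library for GINS3 and made its groups overlap. The ratio of GINS2 to GINS3 was 1.30, 1.49 and 1.53 in NC and 1.91, 1.79 and 1.71 in siKIF15, without overlap. For GINS4 over GINS3 and for CDC45 over GINS3 the groups overlapped.

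None of the 6 polymerase, primase, clamp loader and flap nuclease genes was called by limma, and 3 were higher at an unadjusted p of at most 0.05. POLA1 and PRIM1, the catalytic subunits of polymerase alpha and its primase, had log2 changes of 0.07 (95% interval -0.14 to 0.29) and 0.10 (-0.14 to 0.33), with overlapping groups. For the clamp loader subunits RFC3, RFC4 and RFC5, and for FEN1, the nuclease that trims Okazaki fragments, every siKIF15 library lay above every NC library. Their log2 changes were 0.13, 0.21, 0.20 and 0.15, with adjusted p of 0.27, 0.10, 0.082 and 0.16. The 95% intervals were -0.03 to 0.28 for RFC3, 0.03 to 0.40 for RFC4 and 0.04 to 0.36 for RFC5. FEN1, the highest of the role, was at 4593.8, 4519.8 and 4471.3 in NC libraries against 4971.9, 5354.9 and 4753.0 in siKIF15 (0.15 ± 0.07). RFC5 was at 2431.4, 2586.9 and 2251.1 in NC libraries against 2797.4, 2843.5 and 2709.2 in siKIF15.

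Among nucleotide supply genes TYMS, which makes thymidylate, rose 1.22-fold. It stood at 3769.9, 4391.2 and 3848.7 in NC libraries against 4543.8, 5191.0 and 4947.9 in siKIF15-labelled libraries (log2 change 0.29 ± 0.08 SE, adjusted p = 0.019). NC 2 was high for TYMS and came close to siKIF15 1. TK1, the thymidine salvage kinase and per length the most abundant member, was at 12664.3, 11379.9 and 12598.4 in NC libraries against 12813.7, 14535.0 and 11612.6 in siKIF15 (0.08 ± 0.08, 95% interval -0.09 to 0.26, adjusted p = 0.54). Its siKIF15 libraries lay on both sides of the NC mean. The ribonucleotide reductase subunits RRM1 and RRM2 had log2 changes of 0.07 (-0.09 to 0.23) and 0.08 (-0.06 to 0.22). RRM2 was nevertheless free of overlap, at 6750.1, 6776.7 and 6426.9 in NC and 6850.1, 6974.8 and 7288.7 in siKIF15, with a gap between the groups narrower than the spread within NC.

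None of the 4 cyclin E and E2F genes was called, and at an unadjusted limma p of at most 0.05 the count was also 0. CCNE1, a cyclin E gene, was at 811.2, 889.7 and 763.5 in NC libraries against 801.9, 858.2 and 695.5 in siKIF15 (log2 change -0.07 ± 0.11 SE, 95% interval -0.30 to 0.16, adjusted p = 0.72). CCNE2 was at 250.6, 257.1 and 313.0 in NC libraries against 258.7, 190.5 and 318.5 in siKIF15 (-0.12, -0.51 to 0.27). CCNE2 had the lowest level of the 33 and the widest interval. E2F2, an activating E2F, was at 855.0, 721.1 and 696.2 in NC libraries against 821.6, 796.8 and 817.1 in siKIF15 (0.11, -0.12 to 0.33). E2F8, a repressive E2F, was at 471.0, 459.7 and 394.9 in NC libraries against 477.5, 363.7 and 455.9 in siKIF15 (-0.04, -0.32 to 0.25). Groups overlapped for all 4 genes. The smallest log2 change among the called members was that of MCM7, 0.23. The intervals of CCNE2, E2F2 and E2F8 reach that size, and that of CCNE1 does not.

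Among chromatin genes CHAF1B, a subunit of the histone chaperone CAF-1, rose 1.23-fold, from 1066.9, 1200.5 and 1206.3 to 1418.4, 1464.0 and 1379.4 (log2 change 0.30 ± 0.09 SE, adjusted p = 0.028). Its partner CHAF1A was at 3083.6, 3178.8 and 3183.7 in NC libraries against 3618.9, 3798.9 and 3334.5 in siKIF15 (0.18 ± 0.07, adjusted p = 0.095). UHRF1, which recruits the maintenance DNA methyltransferase, was at 1773.5, 1933.4 and 1794.5 in NC libraries against 2092.1, 2181.4 and 2122.2 in siKIF15 (0.22 ± 0.08, adjusted p = 0.061). All 3 genes had siKIF15 values above the NC range, but only CHAF1B passed the threshold. SLBP, which binds histone mRNA, was at 4040.0, 4450.8 and 4083.7 in NC libraries against 4297.9, 4689.7 and 4353.7 in siKIF15, with overlapping groups (0.09 ± 0.07, -0.07 to 0.24, adjusted p = 0.46). The repair genes BRCA1, which acts in homologous recombination, and EXO1, an exonuclease, overlapped as well. BRCA1 was at 821.8, 981.7 and 875.5 in NC libraries against 838.2, 794.9 and 1002.5 in siKIF15 (-0.03 ± 0.11, -0.26 to 0.21, adjusted p = 0.90), and EXO1 had a change of 0.09 (-0.13 to 0.32).

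Levels were compared between genes only per kilobase of the longest coding transcript in GENCODE. This assumes that the signal, whose scale is not given, was not already divided by length. On that scale the NC mean was highest for TK1 (7266.0 per kilobase), followed by MCM7 (3638.8), TYMS (2408.7) and MCM2 (2303.4), and lowest for CCNE2 (82.1). Within the ring MCM3, MCM5 and MCM4 were at 1690.3, 1674.4 and 1447.1 per kilobase and MCM6 at 790.5. MCM3 and MCM5 are neighbours that do not differ beyond their spread, whereas MCM7 and MCM6 stand apart at the ends of the ring's range. GINS2, GINS3 and GINS4 lay between 292.2 and 447.3 per kilobase, and CDC45 at 683.4.

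Over all genes the changes moved with GC content and with transcript length in 2 of the 3 siKIF15-labelled libraries. Over 13375 genes, which are not independent replicates, Spearman's rho between a gene's change from the NC mean and its transcript GC was 0.42, 0.40 and -0.08 in siKIF15 1, 2 and 3. Over the 33 members, which share libraries, rho was 0.57, 0.57 and -0.22. Members called higher had a median GC of 51.4% and those not called 45.6%, beside 49.7% for all genes tested. After each library was corrected for GC content and transcript length, 11 members were higher and 2 lower, and 9 of the first 11 calls remained. MCM7 and TYMS lost their calls (log2 change 0.06 and 0.11, adjusted p = 0.35 and 0.23), while MCM10 and RFC3 gained one (0.27 and 0.13, adjusted p = 0.026 and 0.046). TK1 and CCNE1 then stood lower (-0.13 and -0.26, adjusted p = 0.031 and 0.030). Calls lower were common under this correction. Of 12139 lines outside the members, with a promoter window but no E2F letters, 21.8% were called lower and 10.1% higher. The 2 of 33 members lower are a smaller share than that. The members' median was 0.08 after this correction, beside -0.08 for all genes with a GC value. CDC45 and GINS2 went from 0.52 each to 0.35 and 0.41, still called. The kept calls of MCM2, MCM5, MCM3 and CDT1 were smaller as well, at 0.18, 0.20, 0.17 and 0.17 in place of 0.34, 0.36, 0.29 and 0.27.

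**Figure D3:**
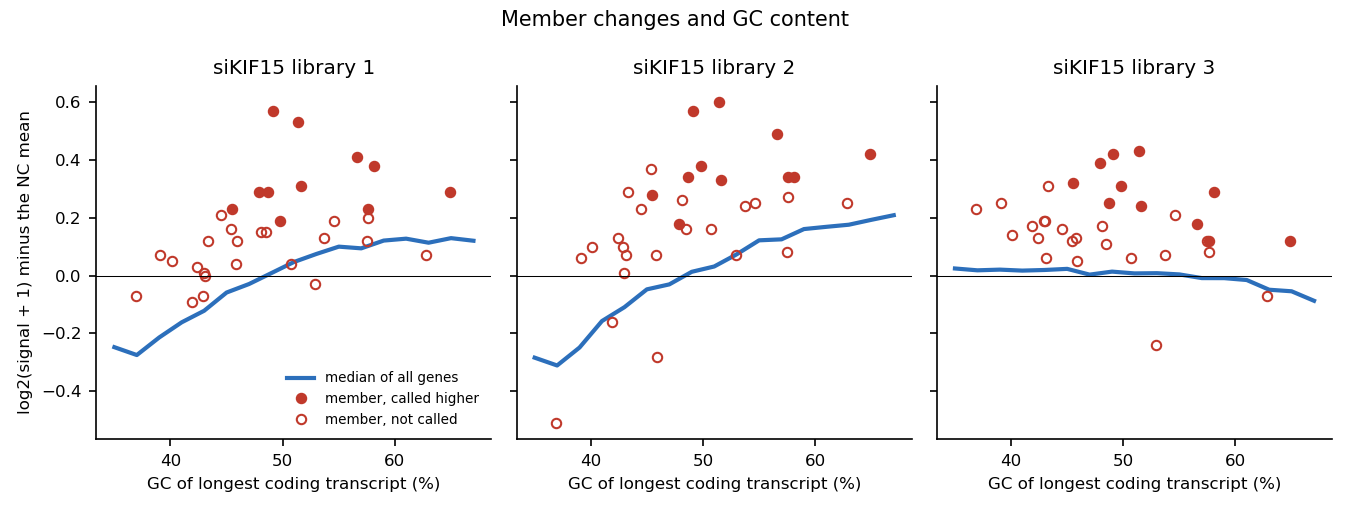
Change of each member from its NC mean against the GC content of its longest coding transcript, in each siKIF15-labelled library; the line is the median of all genes with a mean signal of at least 10, in GC bins. The line climbs with GC in libraries 1 and 2 and is nearly flat in library 3, and most members lie above it in all 3.

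Other genes of the pathway were counted on separate lists, to be read against the 9.66% higher and 8.33% lower of all genes tested. Of 53 further replication genes 10 were called higher and none lower by limma (1 lower at an unadjusted p of at most 0.05), with a median log2 change of 0.09. POLD4 and POLD1, subunits of the lagging-strand polymerase delta, rose by 0.68 ± 0.08 and 0.44 ± 0.07 (SE; adjusted p = 3.8e-05 and 0.00075). POLD1 was at 3073.5, 3022.9 and 3138.3 in NC libraries against 4200.6, 4498.6 and 3852.4 in siKIF15-labelled libraries. RNASEH2A, which removes RNA from DNA hybrids, rose by 0.40 and the clamp loader subunit RFC2 by 0.39 (adjusted p = 0.0015 and 0.0020), and RNASEH2A was not called without the intensity trend (adjusted p = 0.056). RFC2 was thus called where RFC3, RFC4 and RFC5 were not, although the difference between these subunits was not tested.

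Genes that gate entry into S phase had 5 of 32 members called higher and 3 lower, with a median of 0.03, and the count lower is near the share of all genes. CDKN2B, which encodes the CDK4/6 inhibitor p15, rose 2.82-fold, from 270.5, 268.4 and 302.4 to 734.3, 819.7 and 818.1 (log2 change 1.49 ± 0.12 SE, adjusted p = 2.2e-07). CDKN1A, which encodes p21, was at 28062.8, 25090.5 and 28128.3 in NC libraries against 49525.5, 50292.5 and 45708.1 in siKIF15 (0.84 ± 0.07, adjusted p = 1e-06). CCND1, the cyclin D1 gene, fell from 26358.6, 27421.8 and 26511.7 to 17707.9, 17076.2 and 17915.9 (-0.61 ± 0.06, adjusted p = 7.8e-06). The groups were far apart for these 3 genes. CDKN2C and CCND3 rose by 0.58 and 0.51 (adjusted p = 0.00033 and 0.00019), and the E2F genes E2F5 and E2F3 fell by 0.60 and 0.32 on the log2 scale (adjusted p = 0.0023 and 0.015). The E2F3 call ended without NC 1, NC 2, NC 3, siKIF15 1 or the intensity trend (adjusted p up to 0.095), and those of the others held under all 18 alternatives tried.

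Of 38 mitotic genes none was called higher by limma (3 at an unadjusted p of at most 0.05) and 4 lower (CENPF, ASPM, ECT2 and ANLN), with a median of 0.00, and the count lower is near the 8.33% of all genes. The 38 include the chromosome 20 genes AURKA, TPX2 and UBE2C, whose signal was close to 0. The call of each of these 4 ended when any library other than siKIF15 3 was left out or no intensity trend was fitted, with adjusted p values of up to 0.24 over the alternatives. Of 22 repair and checkpoint genes CHEK2 rose by 0.74 ± 0.09 (SE, adjusted p = 2e-05), and ATR, ATM and PMS2 fell by 0.75, 0.69 and 0.47 (adjusted p = 0.001, 0.0026 and 0.0011). Without the intensity trend ATR and ATM were not called (adjusted p = 0.079 and 0.069). CENPF, ASPM, ATR and ATM have long transcripts (10307, 10887, 8249 and 13147 bases), and they stayed called after the GC and length correction. That correction made calls lower common, at 21.8% of lines outside the members with a promoter window but no E2F letters. Staying called lower there thus says little about transcript length, whose part in these changes was not tested. CHEK2 and PMS2 have near-identical copies elsewhere in the genome and are uncertain, since how shared reads were counted is not given in the sources used here.

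**Figure D4:**
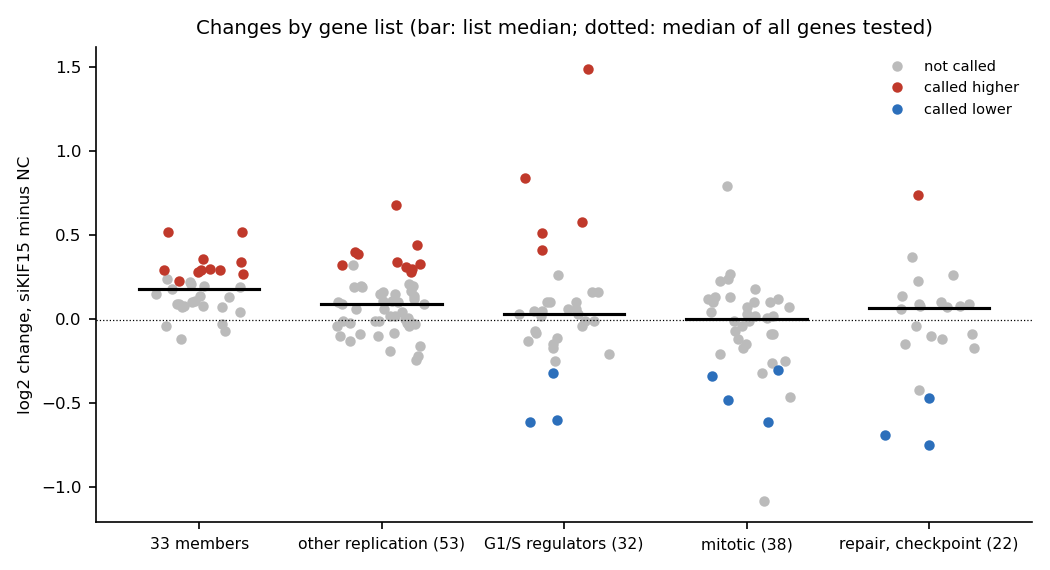
Log2 change of every measured gene in 5 lists, siKIF15-labelled minus NC, with red and blue for genes called higher and lower and a bar for each list's median. The members lie mostly above 0 (median 0.18), the mitotic genes on both sides (median 0.00), and the extreme rise among G1/S regulators is CDKN2B.

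How far each call rests on a single library was checked by leaving libraries out. MCM2, CDC45 and GINS2 stayed called under all 18 alternatives tried, and the other 8 did not. The members called higher numbered 5 without NC 1, 5 without NC 2, 5 without NC 3, 4 without siKIF15 1, 7 without siKIF15 2 and 16 without siKIF15 3. Calls higher over all genes moved the same way. They fell when any 1 library other than siKIF15 3 was left out, and rose without siKIF15 3. Whether the members moved more than all genes did was not tested. CDT1, MCM7 and CHAF1B lost their calls without any 1 library other than siKIF15 3, with adjusted p of up to 0.17, 0.35 and 0.16 over all alternatives. CDC6 lost its call without any 1 NC library, GINS4 without any 1 NC library or siKIF15 1, and TYMS without NC 1, NC 3, siKIF15 1 or siKIF15 2. MCM3 lost it without NC 2 or siKIF15 1, and MCM5 without siKIF15 1. Scaling libraries to equal totals left 5 calls (MCM2, MCM3, MCM5, CDC45 and GINS2), and a fit without the intensity trend left 3 (MCM2, CDC45 and GINS2). Both settings also gave fewer calls higher over all genes than the main fit. Of the 33 members 16 share exonic bases with another annotated gene in GENCODE, among them GINS2, GINS4, MCM2, MCM7 and TYMS, and strand is not stated for these libraries, so reads of the partner genes cannot be told apart. The same holds for POLD1, POLD4, CDKN1A, CCND1, CCND3, E2F5, ATM and ANLN. CDC45, MCM3, MCM5, CDC6, CDT1 and CHAF1B have no such overlap.

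The 3 members without a row all lie on chromosome 20 in RefSeq. Signal there was low throughout: the 255 lines assigned to it had a median mean signal of 1.64 and a highest mean of 99.6, whereas the medians of the other chromosomes ran from 324.2 to 1509.81. Of RefSeq coding genes, 46.9% were listed for chromosome 20 and between 66.9% and 89.1% for the other autosomes and X. Related cell cycle genes on chromosome 20 were at the floor, with AURKA at 0 in 5 libraries and 4.1 in siKIF15 2, UBE2C at 7.2, 0.2 and 0 in NC and 0 in siKIF15, and TPX2 between 5.3 and 15.8. Such values are not read as absence. PCNA is the sliding clamp, GINS1 a helicase subunit and E2F1 an activating E2F, and no statement is made on any of them.

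**Figure D5:**
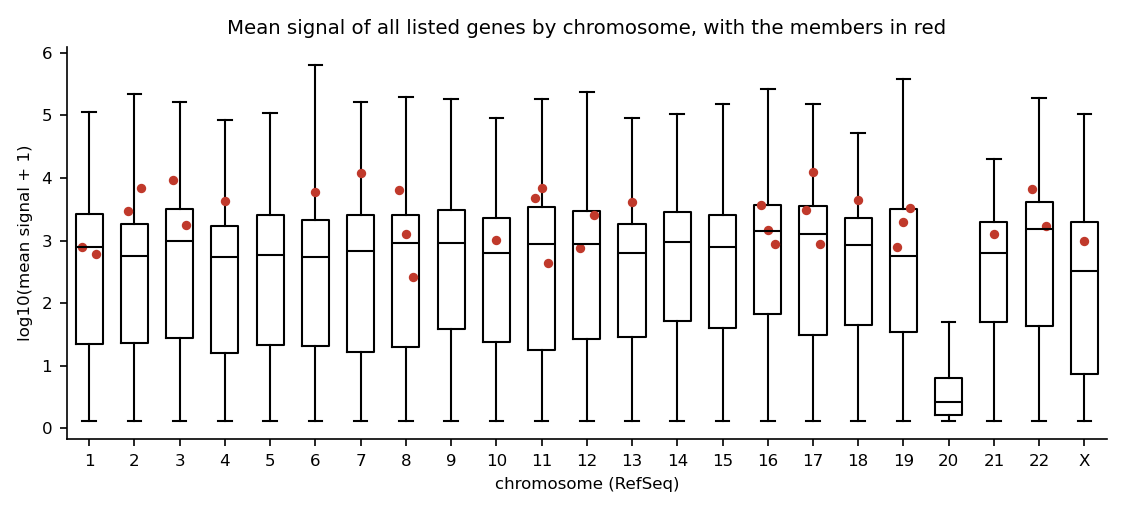
Mean signal of all listed genes by chromosome on a log10 scale (box, quartiles and median; whiskers, up to 1.5 times the box length), with the 33 members as red points. Chromosome 20 lies far below every other chromosome and holds no red point.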

How the data were processed

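For each library the authors deposited a signal value for every listed gene symbol, with the scale not stated. Per the submitters' processing notes, the tool was Bowtie 0.12.2 and the builds were mm8 and mm9, which are mouse, although the organism is labelled human; counting, annotation and strand are not given in the sources used here. Low values were not whole numbers (at most 2.0% within 0.01 of one in any library), so reads were not recovered and the count test planned for counts did not apply. Symbols were joined across the 6 files, and limma 3.58.1 (R 4.3.3) with an intensity trend was fitted to log2(value + 1) of all 16548 genes with a group mean of at least 1, with Benjamini-Hochberg adjustment and a threshold of 0.05. The fit was tested on simulated data. GC content and length came from GENCODE 29 and promoters from RefSeq GRCh38.p14, where 28 of 33 members matched. Members and lists were chosen with earlier results of these data known. Every member and KIF15 could be named, with full statistics for called members and for the highest of each role; of each context list (other replication, G1/S regulators, mitotic, repair and checkpoint) the called genes were named, up to 4 a direction by adjusted p. Marker, ratio and chromosome 20 examples were chosen after their values were seen. Alternatives covered pseudocount, filter, variance model, library weights, scaling, replicate block, GC and length, and leaving out each library; scaling used equal totals, medians or trimmed means of M values.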

Additional observations from a re-analysis of the deposited data

How the results depend on the processing

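Over 594 member results in 18 alternatives, 506 kept direction and side of the threshold, 47 lost and 19 gained a call, and 22 changed sign; the cause was not tested. Members called higher numbered 3 without the intensity trend, 17 with library weights, 5 with equal totals, and 4 to 16 when 1 library was left out; 2 members were lower after the GC and length correction, and 2 with the replicate block as well. Their median was 0.12 with equal totals and 0.08 after the correction, with or without the block. The median over all genes in the same fits was -0.06 with equal totals and -0.08 after the correction. The genes called higher numbered 760 without the trend, 3214 with weights and 767 to 2537 without single libraries. The genes called lower numbered 310, 3185 and 417 to 2540 in the same order, and 3431 after the correction (3519 with the block); the main counts were 1599 and 1379, and with equal totals 1205 and 1753. Without the correction, the replicate block gave 11 members higher and changed no call of a member; over all genes it gave 1654 higher and 1530 lower. Deviations of libraries with the same replicate number were little correlated (0.03, -0.06 and 0.02), and whether such libraries share a batch is not stated. KIF15 stayed uncalled in all 18, between -0.22 and -0.05.

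The sign changes were as follows. MCM6 was -0.02 with equal totals and -0.03 without NC 1; POLA1 was -0.03 with weights. After the correction, with or without the block, PRIM1 was 0.00, FEN1 -0.03, TK1 -0.13, SLBP -0.08 and BRCA1 0.12. E2F8 was 0.08 with weights. Leaving out single libraries gave a log2 change between -0.03 and 0.11 for MCM6, 0.00 and 0.16 for TK1, -0.29 and 0.08 for CCNE2, and -0.12 and 0.08 for E2F8. It gave up to 0.02 for CCNE1 and 0.04 for BRCA1. The unknown depth sets no floor for low values, and 3 libraries a group limit the precision.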

Other observations

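Genes outside the members were split by E2F letters in their promoter window. Of 758 lines with the letters 10.4% were called higher and 7.92% lower, with a median log2 change of -0.01, beside 9.61%, 8.52% and 0.00 for 12273 lines without the letters. Genes with the TTTGAA letters, on either strand, gave 9.16% higher and 8.11% lower among 1899.

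CDKN2A, which encodes the CDK4/6 inhibitor p16 and the p53 regulator p14ARF, stood at 2395.1, 2233.2 and 2181.1 in NC libraries against 3121.5, 3333.1 and 2634.1 in siKIF15-labelled libraries (log2 change 0.41 ± 0.09 SE, adjusted p = 0.0048). It was singled out after its values were seen, and it overlaps an antisense gene. With CDKN2B and CDKN2C, 3 of the 4 genes of the CDKN2 family were called higher, against 9.66% of all genes tested. CDKN2D had a change of 0.26 ± 0.12 (adjusted p = 0.15). The family was picked with values known. Transcript GC is 61.4%, 58.1% and 61.3% for CDKN2A, CDKN2C and CDKN2D, and 44.6% for CDKN2B. The part of GC content in these changes was not tested. Also picked with values known, CDK2, the kinase partner of cyclin E, had a log2 change of 0.10 ± 0.07 (adjusted p = 0.33) and CCNA2, the S phase cyclin A, one of -0.07 ± 0.08 (adjusted p = 0.58).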
